A study of Mus musculus with 9 samples.

Results

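Brain tissue given LowDose of an adeno-associated virus (AAV) was compared with tissue given phosphate-buffered saline (PBS), 10 days after stereotaxic injection. The comparison uses every library that the labels name LowDose or PBS, which is 6 of the 9 RNA sequencing libraries of the series, 3 in each group. The other 3 libraries, named HighDose, entered the same model and are given beside some results. All 9 came from mice of genotype WT and from tissue labelled brain ctx, cut from the infected centre, and the labels give all of them, PBS included, the same injection protocol. The amounts of virus, its serotype and cargo, and the age and sex of the mice were not used here. The labels do not say whether the libraries of a group came from separate mice, so p-values measure the spread between these libraries, which may be technical.

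AAV is a small DNA virus that is widely used to carry genes into neurons. Cells can sense viral DNA and RNA through cGAS and STING, through Toll-like receptors and through RIG-I-like receptors. These sensors induce type I interferon, which in turn raises a large set of interferon-stimulated genes in neurons and glia. In bulk tissue, a lower level of a gene can come from fewer cells of a type or from less RNA per cell, and these cannot be told apart.

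The table covers 1710 genes, each at least 2-fold apart in mean FPKM (fragment counts scaled by transcript length and library size) between some pair of the 3 groups. The HighDose and PBS means differ that much for 1581 of them and the LowDose and PBS means for 289, so most genes stand in the table for reasons other than LowDose. Library totals, recovered from the ratio of count to FPKM, were 18.3 to 21.7 M counts in PBS and 18.7 to 23.7 M counts in LowDose. The listed genes held 1.54% to 1.61% of the counts in PBS, 1.34% to 1.38% in LowDose and 3.90% to 6.04% in HighDose. Levels below are counts scaled to these totals (CPM), with SD over 3 libraries, and differences are log2 changes of LowDose minus PBS with SE.

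LowDose differed from PBS in few of these genes. Of 1583 genes with enough counts to test, 7 were higher in LowDose and 34 were lower at an adjusted p under 0.05, together 2.59% of those tested (0.442% higher and 2.15% lower). The median log2 change was -0.03. Every LowDose library lay above every PBS library for 104 genes, or 6.57%, and below every PBS library for 208, or 13.1%. Without adjustment, 61 genes were higher and 124 lower at p under 0.05. With the replicate number as a block, 12 genes were higher and 50 lower. With TMM factors computed within the listed genes, which is another scaling, 3 were higher and 3 lower, and 5 of these were among the 41. With the sum of the listed counts as library size, 8 were higher and 2 lower.

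**Figure D1:**
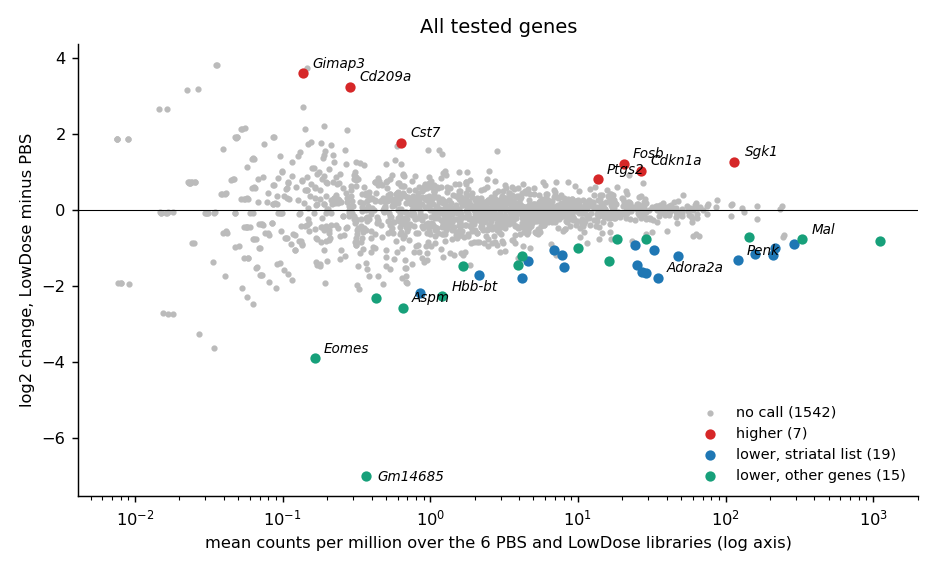
Log2 change of LowDose minus PBS (vertical axis) against the mean CPM over the 6 libraries (horizontal log axis) for the 1583 tested genes. Coloured points are the 7 genes called higher and the 34 called lower, of which 19 belong to a list of striatal neuron genes; most other points lie close to 0.

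The genes higher in LowDose and measured at a mean of at least 1 CPM were 4: Sgk1, Fosb, Cdkn1a and Ptgs2. Sgk1 encodes a kinase that is induced by glucocorticoids and osmotic stress. Fosb encodes a transcription factor of the immediate early class, which follows neuronal activity. Cdkn1a encodes the cell cycle inhibitor p21, a target of p53 and of glucocorticoids, and Ptgs2 encodes cyclooxygenase-2, which makes prostaglandins and is also raised by neuronal activity.

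The bases upstream of the RefSeq start (build GRCm38.p6) are shown for a pair of raised genes and for a pair of interferon-stimulated genes that were not called, chosen as examples that hold the motifs named below. Not every gene of either kind does: in the same window Ptgs2 and the first entry of Cdkn1a held none of the 3 motifs, the first entry of Sgk1 held the interferon element, and Irf7 and Cxcl10 did not hold it. Each line gives 120 bases, 5′ to 3′ on the strand of the gene, ending 1 base before the start. Capitals mark matches on either strand to TGACG (core of the cAMP response element), GGGCGG (GC box) and the core of the interferon-stimulated response element (GAAA, any 2 bases, GAAA). The windows are chr7:19310046-19310165 (minus strand) for Fosb, chr17:29093649-29093768 (plus strand, the second of 2 entries) for Cdkn1a, chr4:156200819-156200938 (minus strand) for Isg15 and chr19:34640769-34640888 (plus strand) for Ifit1.
Fosb: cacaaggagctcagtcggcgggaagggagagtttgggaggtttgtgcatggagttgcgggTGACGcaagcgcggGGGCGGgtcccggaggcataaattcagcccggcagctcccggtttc
Cdkn1a: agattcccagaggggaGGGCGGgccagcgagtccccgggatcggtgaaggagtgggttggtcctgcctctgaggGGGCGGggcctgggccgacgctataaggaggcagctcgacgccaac
Isg15: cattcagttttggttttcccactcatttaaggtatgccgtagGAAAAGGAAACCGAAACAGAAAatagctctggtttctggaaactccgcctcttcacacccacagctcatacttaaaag
Ifit1: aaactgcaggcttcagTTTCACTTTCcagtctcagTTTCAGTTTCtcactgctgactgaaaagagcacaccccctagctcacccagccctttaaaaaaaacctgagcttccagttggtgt
Fosb held TGACG 60 bases before the start and GGGCGG 46 bases before it, and Cdkn1a held GGGCGG at 104 and 46 bases. Isg15 held 3 overlapping matches to the interferon element and Ifit1 held 2. Over the 250 bases upstream of all 32851 RefSeq promoters, 2.98% held the interferon element, 17.8% held TGACG and 32.7% held GGGCGG. Of the 63 tested type I interferon-stimulated genes, 49 had an entry, and 20 of those 49 held it, against 3.46% of all 27025 genes with an entry. A match is a description of these letters and not of binding.

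Sgk1 (chromosome 10, 21882184 to 21999903, build mm10) was measured at 57.2, 78.8 and 64.2 CPM in the 3 PBS libraries and at 159, 168 and 153 CPM in the 3 LowDose libraries. The lowest LowDose library lay well above the highest PBS library, and the LowDose libraries were close to each other. Its log2 change was 1.26 ± 0.21 with an adjusted p of 0.000269, and HighDose libraries stood at 122, 158 and 119 CPM. Its mean at LowDose (160.3 ± 7.58 CPM) was thus not below its mean at HighDose (133 ± 21.9 CPM), and the difference between the doses was not tested here.

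Fosb (chromosome 7, 19302696 to 19310051) was at 11.4, 13.3 and 12.1 CPM in PBS and 26.4, 25.7 and 33.4 CPM in LowDose. The groups did not overlap, and the log2 change was 1.21 ± 0.28 (adjusted p = 0.00824). Its HighDose libraries ranged widely (27.5, 26.4 and 85.5 CPM), with replicate 3 far above the other two. With a robust estimate of the spread between libraries, an alternative chosen after seeing the data, the adjusted p for Fosb was 0.246. Fosb was also not called with TMM factors, DESeq2 size factors or the sum of the listed counts, nor with adjustment over all annotated genes. Sgk1, Cdkn1a and Ptgs2 stayed called with those 3 scalings. Each of the 6 fits that left out 1 library called Fosb higher.

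Cdkn1a (chromosome 17, 29090976 to 29100727) was at 15, 20.8 and 17.2 CPM in PBS and 30.4, 35.9 and 42.2 CPM in LowDose, with no overlap. Its log2 change was 1.03 ± 0.23 (adjusted p = 0.00604), against 3.52 for HighDose minus PBS. Ptgs2 (chromosome 1, 150100031 to 150108227) was at 9.92, 9.35 and 10.6 CPM in PBS and 18.3, 14.3 and 19.4 CPM in LowDose. These groups did not overlap either, but the change of 0.80 ± 0.23 passed the threshold only narrowly (adjusted p = 0.048). Without 1 library, its adjusted p was above the threshold for 5 of the 6 libraries that could be left out.

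**Figure D2:**
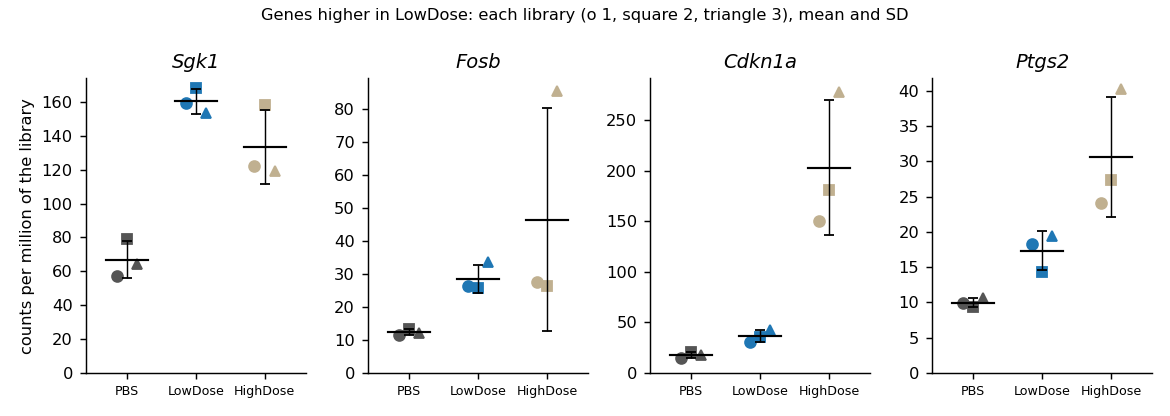
Level in CPM (vertical axis from 0) of Sgk1, Fosb, Cdkn1a and Ptgs2 in each of the 9 libraries, with circles, squares and triangles for replicates 1, 2 and 3, a line at the mean and bars of 1 SD over 3 libraries. Every LowDose library lies above every PBS library for all 4 genes; only Sgk1 has a HighDose mean (133 ± 21.9 CPM) below its LowDose mean (160.3 ± 7.58 CPM).

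These genes belong to broader groups. Of 9 tested genes of the glucocorticoid response, 2 rose (Sgk1 and Cdkn1a), none fell, and the median log2 change was 0.68 against -0.03 over all tested genes. That list names 31 genes, and 10 of them were among the 1710 genes covered, all chosen for a difference between some groups. Fkbp5, another gene of the list, was not covered, so the median describes the covered members only. Galnt15, a glycosyltransferase gene, was at 3.16, 6.39 and 3.55 CPM in PBS and 6.997, 7.55 and 7.43 CPM in LowDose (adjusted p = 0.148). Of 14 tested immediate early genes, 2 rose (Fosb and Ptgs2), none fell, and the median was 0.49. All LowDose libraries lay above all PBS libraries for 7 of them, against 6.57% of all tested genes. This list names 41 genes, and Fos was among those not covered. Npas4, an activity-dependent transcription factor of neurons, was at 14.8, 21.6 and 26.2 CPM in PBS and 32.3, 37.5 and 33 CPM in LowDose. Its groups did not overlap, with an adjusted p of 0.0772 that became 0.0296 with the replicate block. Jun, another immediate early factor, was at 48.3, 48.8 and 50.6 CPM in PBS and 44.4, 46.1 and 39.8 CPM in LowDose, with every LowDose library below every PBS library and an adjusted p of 0.877. Of 17 tested p53 targets and cell injury genes, Cdkn1a alone was called and the median was 0.13. Atf3, a transcription factor raised by nerve injury, was at 0.927, 0.581 and 0.738 CPM in PBS, 0.674, 1.03 and 0.855 CPM in LowDose and 26.9, 27.7 and 56.4 CPM in HighDose.

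The remaining 3 raised genes rested on few reads. Cst7, which encodes cystatin F of activated microglia, had 4, 7 and 6 counts in PBS and 9, 15 and 36 counts in LowDose, a ratio of 3.31 with a 95% counting interval of 1.91 to 6.05. LowDose replicate 3 gave more than the other 2 LowDose libraries together, and without it the adjusted p was 0.648. Cd209a, a lectin gene of dendritic cells and monocytes, had 3 counts in PBS and 34 in LowDose, a ratio of 10.6 (3.34 to 54.1). Gimap3, a GTPase gene of lymphocytes, had 1 count in PBS and 17 in LowDose, a ratio of 15.9 (2.50 to 666). Every LowDose library lay above every PBS library for all 3 genes. These intervals cover counting error only. Gimap3 was not called by other tests (DESeq2 and limma-voom) or in a fit of only the 6 PBS and LowDose libraries. In that fit Cd209a and Cst7 were not called either, nor was Cd209a by DESeq2 or Cst7 by limma-voom. Gimap3 and Cd209a were each called in 3 of the 6 fits that left out 1 library, and Cst7 in 4.

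Most of the genes that were lower in LowDose are markers of striatal medium spiny neurons, the inhibitory output neurons of the striatum that carry dopamine receptors. Although the tissue is labelled as brain ctx, these genes were well measured in PBS, with Pde10a at 319, 329 and 225 CPM and Ppp1r1b at 352, 470.4 and 306 CPM. The table holds 2 of 31 listed markers of cortical excitatory neurons, so the label could hardly be checked against them. Of 28 tested genes on the striatal list, 19 fell and none rose, all 28 had a negative log2 change, and the median was -1.17. All LowDose libraries lay below all PBS libraries for 25 of the 28, against 13.1% of all tested genes. The list names 46 genes, and only these 28 were covered. Every covered gene is at least 2-fold apart between some pair of groups, so members with smaller differences are not seen here. The shared sign and the median therefore hold for the covered members only. The list was chosen with earlier results of these data known, so its count is a description.

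Genes of the neurons of the indirect pathway, which restrain movement, were among those that fell. Adora2a (chromosome 10, 75316877 to 75334784), an adenosine receptor that opposes dopamine signalling, was at 55.6, 64.6 and 42.2 CPM in PBS and 28.1, 12.7 and 6.04 CPM in LowDose. No libraries overlapped, but the LowDose libraries were far apart, with replicate 1 more than 4 times as high as replicate 3. The log2 change was -1.79 ± 0.30 with an adjusted p of 0.000269, which became 0.193 with the robust estimate of the spread. Drd2 (chromosome 9, 49340627 to 49408177), the dopamine D2 receptor, was at 36.3, 43.7 and 29.8 CPM in PBS and 22, 11.7 and 6.47 CPM in LowDose, a change of -1.45 ± 0.28 (adjusted p = 0.00113, and 0.0627 with the robust estimate). Penk (chromosome 4, 4133531 to 4138819), the enkephalin precursor of the same neurons, was at 177, 204 and 139 CPM in PBS and 105, 61.3 and 41.7 CPM in LowDose, a change of -1.32 ± 0.25 (adjusted p = 0.00105, and 0.00276 with the robust estimate). Gpr6, an orphan receptor of indirect pathway neurons, had a change of -1.18 ± 0.34 with overlapping libraries and was called lower (adjusted p = 0.046).

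Among genes of the direct pathway, which promotes movement, Drd1 fell. Drd1 (chromosome 13, 54051183 to 54055705), the dopamine D1 receptor, was at 46.1, 49.2 and 37 CPM in PBS and 33.9, 16.3 and 13.4 CPM in LowDose, a change of -1.05 ± 0.25 (adjusted p = 0.0117). Drd1 was not called in the fit of only the 6 libraries, nor without LowDose replicate 2 (adjusted p = 0.056) or LowDose replicate 3 (adjusted p = 0.122). Tac1, the substance P precursor, was at 30.7, 34.2 and 24.4 CPM in PBS and 24.7, 14.2 and 11.9 CPM in LowDose; these groups overlapped and the change of -0.81 ± 0.25 was not called by edgeR (adjusted p = 0.0621) or DESeq2. Tac1 was called lower by limma-voom, with the replicate block (adjusted p = 0.00727) and with the robust estimate (adjusted p = 0.0449). Whether the direct and indirect pathway genes differed in their change was not tested.

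Signalling genes shared by both kinds of medium spiny neuron fell with them. Pde10a, a phosphodiesterase, was at 205, 104 and 77.4 CPM in LowDose, a change of -1.18 ± 0.25 (adjusted p = 0.00417). Ppp1r1b, which encodes DARPP-32, was at 264, 207 and 138 CPM, a change of -0.89 ± 0.23 (adjusted p = 0.0219). Rgs9, a regulator of G protein signalling, fell from 66.2 ± 11.4 CPM to 28.7 ± 13.2 CPM, with an adjusted p of 0.00221. Gng7, the G protein gamma subunit of striatal neurons, fell from 289.8 ± 41.5 CPM to 144 ± 27.5 CPM, with an adjusted p of 0.00496. Other genes of the striatal list, not all of them shared signalling genes, were called lower as well. Lrrc10b, Syndig1l and Serpina9 had log2 changes of -1.65 ± 0.27, -1.62 ± 0.29 and -1.80 ± 0.35. Sh3rf2, Rasgrp2, Gpr52, Isl1 and Ecel1 had log2 changes of -1.51, -0.92, -1.06, -2.20 and -1.35. Isl1 rested on few reads, with 27, 38 and 20 counts in PBS and 12, 6 and 2 in LowDose. It was called in 3 of the 6 fits that left out 1 library. Adcy5 and Pde1b, which encode enzymes that make and break cyclic AMP or cyclic GMP, lay below PBS in all LowDose libraries without a call by edgeR (-0.70 ± 0.21, adjusted p = 0.0639, and -0.67 ± 0.21, adjusted p = 0.0886). DESeq2, limma-voom and the fit of only the 6 libraries called both lower, as did edgeR with the replicate block, which called 25 of the 28 genes. With TMM factors within the listed genes only Serpina9 was called.

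The mean level of the 28 genes, on a log2 scale relative to the PBS mean, was 0.023, 0.24 and -0.27 in the PBS libraries and -0.55, -1.23 and -1.72 in the LowDose libraries. LowDose replicate 1 stood closest to PBS and replicate 3 farthest from it, and the highest LowDose library lay below the lowest PBS library by less than the range of either group. The HighDose libraries stood at -1.44, -1.53 and -1.79, so LowDose replicate 3 lay within the HighDose range. For 25 of the 28 genes LowDose replicate 1 was highest and replicate 3 lowest, an order found in 17.9% of the 995 tested genes with a mean of at least 1 CPM. Without LowDose replicate 3, 9 of the genes were called, and without LowDose replicate 1, 27 were called. How much of each dissected piece was striatum is not stated in the labels, and its part in these values was not tested.

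**Figure D3:**
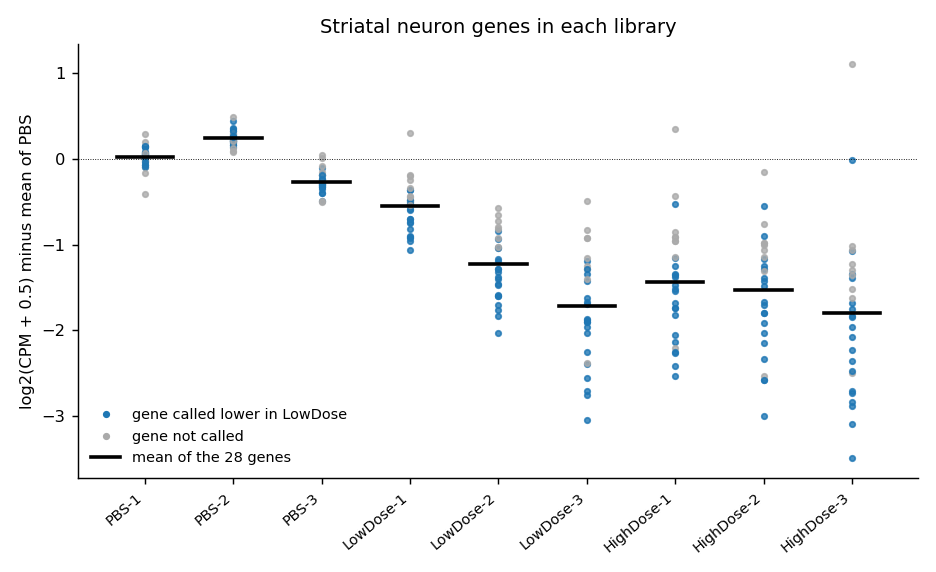
Log2(CPM + 0.5) of each of 28 striatal neuron genes minus its PBS mean (vertical axis) in the 9 libraries (horizontal axis); blue points are the 19 genes called lower in LowDose, grey points the others, and black bars the mean of the 28 genes. The LowDose bars run from -0.55 to -1.72, all below the PBS bars.

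Genes of cholinergic neurons mostly showed the same order of LowDose libraries, 10 of 11 of them from replicate 1 down to replicate 3. Of 11 tested genes of cholinergic neurons, which include the large interneurons of the striatum, 2 fell (Isl1 and Ecel1, both also on the striatal list), none rose, and the median was -1.11. This list names 18 genes, and the median describes the 11 covered members only. Chat, the acetylcholine-synthesizing enzyme, was at 3.38, 4.12 and 2.31 CPM in PBS and 2.61, 1.62 and 0.748 CPM in LowDose, with overlap and no call (adjusted p = 0.323). Slc5a7, the choline transporter, was at 6.21, 6.005 and 4.43 CPM in PBS and 4.43, 1.75 and 0.588 CPM in LowDose (adjusted p = 0.0739, and 0.0024 with the replicate block). In LowDose replicate 3, 29 tested genes with a mean of at least 1 CPM were 1.5-fold or more below all 5 other libraries, against 6 to 17 genes in each of the others; 10 of the 29 were on the striatal list and 6 on the cholinergic list.

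Rxrg, a retinoid X receptor that is abundant in the striatum, was at 27.9, 26.5 and 16 CPM in PBS and 15.9, 6.88 and 4.7 CPM in LowDose, with PBS replicate 3 barely above LowDose replicate 1. Its change was -1.35 ± 0.29 (adjusted p = 0.00417, and 0.0979 with the robust estimate). Rarb, a retinoic acid receptor, had a change of -0.86 ± 0.25 with an adjusted p of 0.0517, which became 0.0163 with the replicate block. Of 10 tested Notch and retinoid genes, Rxrg was the only call. Outside all lists, Slc35d3 (-1.44 ± 0.37), a transporter of the endoplasmic reticulum, Scube3 (-1.22 ± 0.32), a secreted protein, Dach1 (-1.002 ± 0.27), a transcription factor, Cacng4 (-0.76 ± 0.22), a subunit that regulates AMPA receptors, and Doc2b (-0.76 ± 0.22), a calcium sensor of synaptic vesicles, were also called lower. Cacng4 was called in 1 and Doc2b in none of the 6 fits that left out 1 library.

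Some genes of myelin, the sheath that oligodendrocytes wrap around axons, were lower in LowDose, at similar levels in its 3 libraries. Mal (chromosome 2, 127633226 to 127656695), a myelin proteolipid, was at 382, 411 and 466 CPM in PBS and 236, 240.2 and 259 CPM in LowDose. No libraries of the groups overlapped, and the log2 change was -0.78 ± 0.21 (adjusted p = 0.0344). Tspan2, a tetraspanin of oligodendrocytes that is not on the list, was at 175, 168 and 195 CPM in PBS and 111, 105 and 112 CPM in LowDose, a change of -0.71 ± 0.21 (adjusted p = 0.046).

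Of 11 tested oligodendrocyte and myelin genes, 2 fell, Mal among them, none rose, and the median was -0.57. All LowDose libraries lay below all PBS libraries for 7, against 13.1% of all tested genes. The list names 35 genes, and only these 11 were covered, so these values hold for the covered members only. Mog, a protein of the outer myelin surface, was at 61, 71.3 and 89.6 CPM in PBS and 39.5, 49 and 48.1 CPM in LowDose, and Gpr17, a receptor of oligodendrocyte precursors, at 73.2, 88.9 and 83.7 CPM and 46, 48.6 and 57 CPM. Neither was called by edgeR (adjusted p = 0.0652 and 0.0639), but with the replicate block both were (0.0206 and 0.0183), as was Ugt8a, an enzyme of myelin lipid synthesis (0.099 and 0.0318). Of the 11 genes, DESeq2 called 5 lower, limma-voom 4, and edgeR 5 both with the block and in the fit of only the 6 libraries. Apod, a lipid carrier of oligodendrocytes and other glia, was at 142, 149 and 179 CPM in PBS and 157, 182 and 164 CPM in LowDose, with overlap. Il33, an alarmin that oligodendrocytes and astrocytes express, was at 43.7, 45 and 44.4 CPM in PBS and 55.7, 59.6 and 59.9 CPM in LowDose, above PBS in every library without a call (adjusted p = 0.489). The margin was thin: Mal and Tspan2 were called in none of the 6 fits without 1 library.

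Covered genes of dividing cells lay below PBS together, although none of the list passed the test, where edgeR called 2.59% of all tested genes. Of 18 tested cell cycle genes, edgeR, DESeq2 and limma-voom each called none in either direction, all 18 had a negative log2 change, and the median was -0.81. All LowDose libraries lay below all PBS libraries for 13 of them, against 13.1% of all tested genes, and 8 of the 18 had an unadjusted p under 0.05. Mki67, a marker of proliferation, was at 5.78, 3.002 and 4.33 CPM in PBS and 1.64, 1.84 and 2.73 CPM in LowDose, without overlap, a change of -1.08 ± 0.32 (adjusted p = 0.0599, and 0.021 with the replicate block). Ccna2, cyclin A2, was at 2.51, 2.42 and 2.12 CPM in PBS and 1.39, 0.764 and 1.12 CPM in LowDose (adjusted p = 0.1001, with a lower call in the fit of only the 6 libraries), and Top2a, a topoisomerase of replicating cells, at 3.65, 2.52 and 5.03 CPM and 1.73, 1.57 and 2.62 CPM with overlap (adjusted p = 0.112). Only 9 of the 18 reached a mean of 1 CPM, which is about 20 counts in a library. The list names 38 genes, and only these 18 were covered, each at least 2-fold apart between some pair of groups. A low LowDose level can itself help a gene to such a difference. The shared sign, the median and the separation from PBS therefore hold for the covered members only.

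Among genes outside that list, Aspm, a protein of the mitotic spindle in progenitors, had 67 counts in PBS and 12 in LowDose and was called lower (adjusted p = 0.0181). Depdc1b, another gene of dividing cells, had 44 counts in PBS and 9 in LowDose (adjusted p = 0.0443), but with the replicate block its adjusted p was 0.071. Eomes, a transcription factor of neuronal progenitors and of cytotoxic lymphocytes, had 6, 3 and 10 counts in PBS and 0, 0 and 1 in LowDose, 20.3-fold lower in CPM (counting interval 3.22 to 842, adjusted p = 0.0303). The single LowDose count was in replicate 3, so without that library LowDose was at 0. Eomes was not called by DESeq2, by limma-voom, in the fit of only the 6 libraries, or without PBS replicate 3, LowDose replicate 1 or LowDose replicate 2 (adjusted p = 0.0992, 0.0618 and 0.111). Igfbpl1, a gene of young neurons, was at 1.31, 1.16 and 0.692 CPM in PBS and 0.295, 0.27 and 0.374 CPM in LowDose (adjusted p = 0.0821). At HighDose, the mean level of the 18 cell cycle genes was 0.61, 0.98 and 1.11 relative to PBS, while the LowDose libraries stood at -0.64, -0.49 and -0.39.

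**Figure D4:**
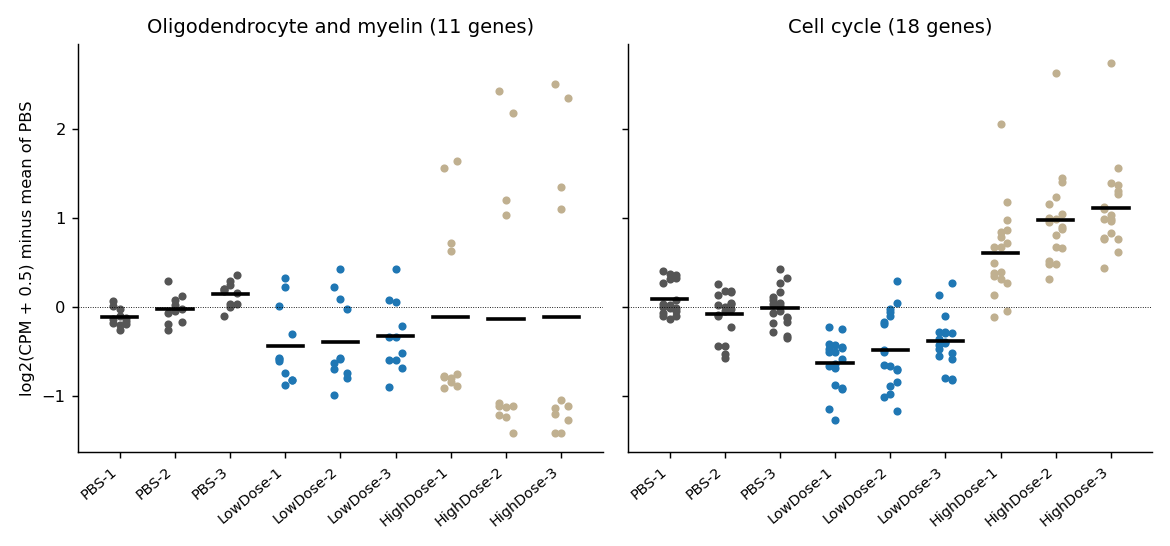
Log2(CPM + 0.5) minus the PBS mean (vertical axis) of 11 oligodendrocyte and myelin genes (left) and 18 cell cycle genes (right) in each library (horizontal axis), with black bars at the mean of the list. The LowDose bars lie below all PBS bars in both panels, between -0.43 and -0.33 for myelin and between -0.64 and -0.39 for the cell cycle, while the HighDose cell cycle bars lie above PBS.

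The interferon response was not detectably different between LowDose and PBS. Of 63 tested type I interferon-stimulated genes, edgeR, DESeq2 and limma-voom each called none, where edgeR called 2.59% of all tested genes. The median log2 change was 0.00, and 4 of the 63 had an unadjusted p under 0.05. Every LowDose library lay above every PBS library for 2 of the 63 and below for 7, against 6.57% and 13.1% of all tested genes. The upper end of the 95% interval of the change lay under 1 on the log2 scale for 54 of the 63. Isg15, a ubiquitin-like antiviral protein, was at 0.927, 2.52 and 1.2 CPM in PBS and 1.52, 1.3 and 0.641 CPM in LowDose, with overlap and an interval of -1.08 to 0.27. Ifit1, which binds viral RNA, was at 3.16, 1.99 and 3.27 CPM in PBS and 2.49, 2.83 and 1.82 CPM in LowDose, with an interval of -0.79 to 0.33. The same genes had HighDose means of 215 ± 62.2 and 380.01 ± 131 CPM. Ifnb1, the interferon beta gene, had 0 counts in all PBS and LowDose libraries and was not tested.

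A pair of genes among the interferon-stimulated genes came to a call with the replicate block. Mx1, an antiviral GTPase, had 7, 8 and 2 counts in PBS and 10, 36 and 13 in LowDose, a change of 1.68 ± 0.49 with an adjusted p of 0.0517, and 0.0161 with the replicate block. LowDose replicate 2 held most of these reads, and without it the change was 0.94 (adjusted p = 0.586). Mx1 was also not called without PBS replicate 3. It was called higher with no filter and without PBS replicate 1, PBS replicate 2, LowDose replicate 1 or LowDose replicate 3. Irf7, the factor that amplifies interferon production, was at 3.27, 5.76 and 4.52 CPM in PBS and 1.9, 3.01 and 2.94 CPM in LowDose, lower without overlap (adjusted p = 0.104, and 0.0182 with the replicate block). Without PBS replicate 1, Irf7 and Oas1b, another gene of this list, were called lower.

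Of 34 tested targets of interferon gamma, 2 fell and none rose, with a median of -0.11. Ido1 (chromosome 8, 24584136 to 24597009), which breaks down tryptophan and is also on the striatal list, was at 3.11, 4.5 and 2.31 CPM in PBS and 1.6, 0.719 and 0.641 CPM in LowDose, a change of -1.72 ± 0.41 (adjusted p = 0.00948). Tgtp1, an immunity-related GTPase, was at 1.58, 2.32 and 3.46 CPM in PBS and 1.1, 0.899 and 0.641 CPM in LowDose, a change of -1.47 ± 0.32 (adjusted p = 0.00417). Its near-identical copy Tgtp2 was at 2.02, 3.002 and 2.44 CPM and 1.6, 2.92 and 2.51 CPM, and the counts of Tgtp1 were not whole in any of the 9 libraries, so how reads were divided between them is uncertain. Cxcl10, a chemokine of the same pathway, was at 0.164, 0.872 and 0.323 CPM in PBS, 0.464, 0.989 and 0.801 CPM in LowDose and 217, 242 and 409.7 CPM in HighDose.

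The sensors upstream showed no call either, where edgeR called 2.59% of all tested genes. At that share, lists of this size can hold no call without differing from other genes. None of 23 tested genes of cGAS, STING and other DNA sensors, none of 11 of the RIG-I-like receptors, none of 18 of the Toll-like receptors and none of 26 of the NOD-like receptors and inflammasome was called by edgeR, DESeq2 or limma-voom, with medians of 0.00, -0.23, -0.13 and 0.04. With the replicate block, and without PBS replicate 1, Irf7 on the RIG-I-like receptor list was called lower. With the sum of the listed counts as library size Il33, on the inflammasome list, was called higher. An unadjusted p under 0.05 was found for 1 gene in each of the first 3 groups and for 0 in the last. A mean of at least 1 CPM was reached by 6 of the 23, 9 of the 11, 14 of the 18 and 10 of the 26. Cgas was at 1.2, 1.36 and 0.968 CPM in PBS and 0.843, 0.764 and 1.02 CPM in LowDose, and Sting1 at 3.76, 4.7 and 3.83 CPM and 2.91, 3.51 and 4.22 CPM, both with overlap. Tlr9, the endosomal receptor for unmethylated DNA, had an interval of -0.94 to 0.20 and Tlr2 of -0.31 to 1.01. Nlrp3, an inflammasome sensor, was at 0.824 ± 0.302 CPM in PBS and 0.51 ± 0.0653 CPM in LowDose (interval -1.61 to 0.23). Of 20 tested NF-kB genes none was called by these tools and 1 had an unadjusted p under 0.05, with a median of -0.17.

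Genes of MHC class I, which presents peptides to cytotoxic T cells, mostly had positive changes without a call. Of 22 tested genes of MHC class I and its peptide loading, 21 had a positive log2 change, with a median of 0.21. Every LowDose library lay above every PBS library for 7 of the 22, against 6.57% of all tested genes. None was called by edgeR, DESeq2 or limma-voom, where edgeR called 2.59% of all tested genes, and 2 had an unadjusted p under 0.05. H2-K1 was at 25.8, 27.5 and 25 CPM in PBS and 23.1, 35 and 32 CPM in LowDose (adjusted p = 0.86), and B2m, the shared light chain, at 68.5, 82.2 and 64.7 CPM and 74.6, 85.9 and 77.8 CPM (adjusted p = 0.908), both with overlap. H2-T10 had the largest change, 1.56 ± 0.61 (adjusted p = 0.21), at under 1 CPM, and its reads can be shared with near-identical class I genes. Of 14 tested MHC class II genes none was called by these tools and 1 had an unadjusted p under 0.05; 6 of the 14 changes were negative and the median was 0.16. H2-Eb1 was at 1.8, 1.11 and 0.692 CPM in PBS and 1.94, 3.46 and 1.66 CPM in LowDose (adjusted p = 0.104). It was called higher without PBS replicate 1, LowDose replicate 1 or LowDose replicate 3.

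**Figure D5:**
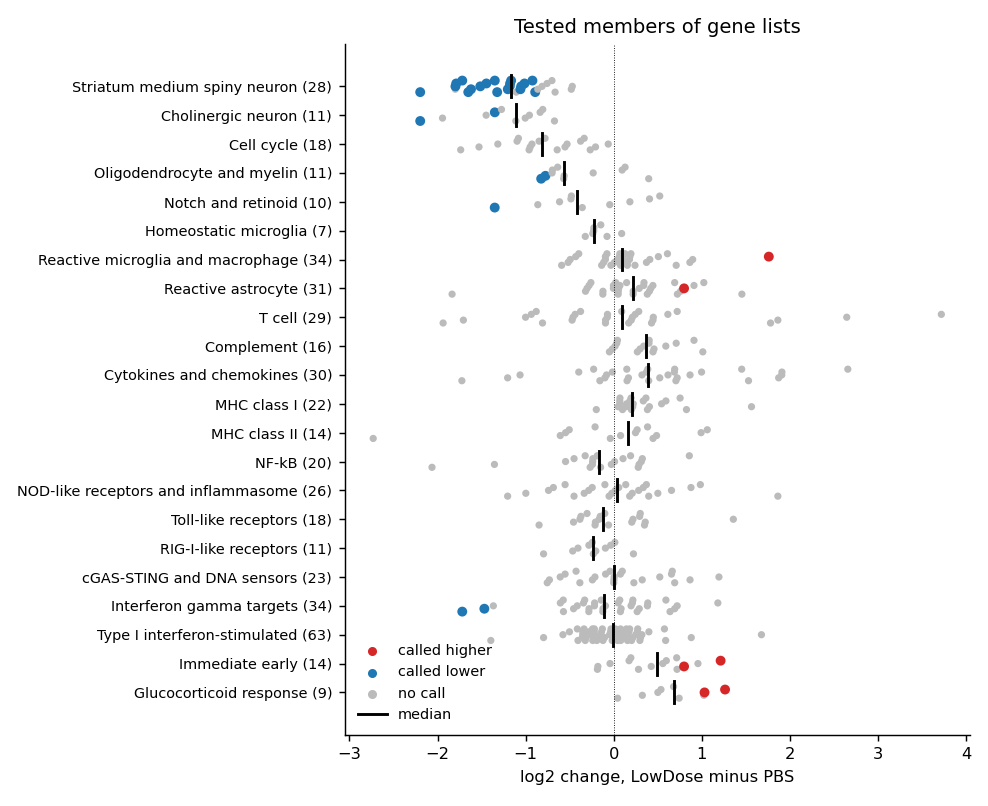
Log2 change of LowDose minus PBS (horizontal axis) for every tested member of 22 gene lists (vertical axis, number tested in parentheses), with a black bar at the median; red points are called higher, blue points called lower and grey points not called. The striatal list holds 19 blue points at a median of -1.17, while the 63 type I interferon-stimulated genes hold none and have a median of 0.00.

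Markers of glia and of infiltrating cells gave few calls, where edgeR called 2.59% of all tested genes. Of 7 tested genes of homeostatic microglia none was called by edgeR, DESeq2 or limma-voom and 0 had an unadjusted p under 0.05, with a median of -0.23; P2ry12, a receptor of resting microglia, was at 39.6, 41.5 and 33.6 CPM in PBS and 37.3, 29.5 and 24.8 CPM in LowDose (adjusted p = 0.655). Of 34 tested genes of reactive microglia and macrophages, Cst7 was the only call, and Aif1, which encodes IBA1, was at 2.56, 3.49 and 2.31 CPM in PBS and 2.61, 3.1 and 2.08 CPM in LowDose. Of 31 tested genes of reactive astrocytes, Ptgs2 was the only call, and Gfap, their filament protein, was at 113, 120.1 and 146 CPM in PBS and 100.02, 125 and 168 CPM in LowDose, with overlap. Of 29 tested T cell genes none was called by these tools, 1 had an unadjusted p under 0.05, and their summed level was 10.1 to 11.2 CPM in PBS and 9.36 to 13.7 CPM in LowDose. Cd3e, a chain of the T cell receptor, had 2 counts in PBS and 3 in LowDose, and Cd8a, the coreceptor of cytotoxic T cells, had 3 in each, so differences in these markers were not detectable at this depth. Of 30 tested cytokine and chemokine genes none was called by these tools and 2 had an unadjusted p under 0.05, with a median of 0.39, and only 5 of them reached a mean of 1 CPM. Cxcl16, a chemokine of macrophages and endothelium, was called higher with the replicate block (adjusted p = 0.0442), and Il33 with the sum of the listed counts as library size.

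Among complement genes, C3 and Cfb stood high in LowDose replicate 2 alone. C3, the central complement protein, was at 14, 21.5 and 11.1 CPM in PBS and 11.5, 59.2 and 16.8 CPM in LowDose, and Cfb, factor B, at 1.04, 1.89 and 2.03 CPM and 1.77, 6.65 and 1.6 CPM. Neither was called (adjusted p = 0.147 and 0.112), and without LowDose replicate 2 the log2 change of C3 was -0.13. C4b was high in 2 LowDose libraries, at 13, 14.7 and 16.1 CPM in PBS and 14.3, 26 and 25.7 CPM in LowDose (adjusted p = 0.24). Without LowDose replicate 1, C3, C4b and Cfb had adjusted p-values of 3.05e-05, 0.0282 and 0.00068. C3 was also called higher without PBS replicate 2 or LowDose replicate 3, and Cfb without PBS replicate 3 or LowDose replicate 3. Of the 16 tested complement genes, edgeR, DESeq2 and limma-voom each called none, 3 had an unadjusted p under 0.05, and the median was 0.37. Over all tested genes edgeR called 2.59%.

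A further 2 called genes rested on single libraries or on absence of reads. Hbb-bt, an adult beta globin of red blood cells, was at 0.382, 1.4 and 4.24 CPM in PBS and 0.632, 0.225 and 0.374 CPM in LowDose, with overlap. PBS replicate 3 held most of the PBS reads, and without it the adjusted p was 0.605; its counts were not whole in all 9 libraries, and near-identical globin genes can share them. The same PBS library was highest for Kcnj13, a channel gene of the choroid plexus, at 0.382, 0.387 and 4.38 CPM in PBS and 0.59, 0.45 and 1.18 CPM in LowDose (adjusted p = 0.345). Gm14685 (chromosome X, 73117047 to 73129262) had 18, 15 and 11 counts in PBS and 0 in every LowDose and HighDose library, at least 15.6-fold lower in LowDose against a limit of 3 counts over the group (adjusted p = 0.000415). It overlaps Xlr5a on the other strand, and whether strand was used in counting is not known here.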

How the data were processed

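Total RNA libraries of 3 PBS, 3 LowDose and 3 HighDose samples were used. The authors deposited estimated counts and FPKM per gene and library in 1 table. Per the file headers these are counts and FPKM, and the submitters' processing notes name edgeR, DESeq2 and build mm10; for the aligner, the counter and the use of strand, the sources used here give nothing. Between 7.66% and 14.0% of the counts were not whole in each library, and all were rounded. Column sums cover only listed genes, so the total of each library was computed from the ratio of count to FPKM and from gene length, and used as library sizes with no further scaling.

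Genes kept by filterByExpr (minimum count 10) were fitted in all 9 libraries by quasi-likelihood (glmQLFTest in edgeR 4.0.16, limma 3.58.1, R 4.3.3), and p-values were adjusted by Benjamini-Hochberg over the 1583 tested genes at a threshold of 0.05. The SE is the change divided by the root of F. List levels are means of log2(CPM + 0.5) minus the PBS mean. The script was tested on simulated data. Positions are from GENCODE M21, in which 1704 of the 1710 identifiers were found. Of the 40 called genes found there, 16 overlap another annotated gene, 14 of them on the other strand.

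The labels number the replicates 1 to 3 in each group. Same-numbered PBS and LowDose libraries deviated together (correlations of 0.294, 0.224 and 0.207), against -0.188 to -0.0179 for libraries of unlike number. Deviations were taken from the mean of each group, so positive values for like numbers push those for unlike numbers down. The negative values are therefore no separate evidence of a pairing. A pairing by number is thus read from the data and not from a label. The main fit does not use it, so its counts and p-values ignore such a pairing. The fit with the replicate block, which does use it, is an alternative. Named genes were called genes with a mean of at least 1 CPM (up to the 15 highest and 15 lowest changes, without unnamed gene models), called list members, the 2 list members of smallest p and a set of fixed genes. Other genes, Gm14685 among them, were named after their values were seen. Some genes entered the tests and counts but are not reported here by name. The members and lists were chosen with earlier results of these data known. Intervals and limits of counts cover counting error only. Lists of astrocyte, sex-linked and AAV entry genes had 0 members in the table. Alternatives were another scaling, filter, test or set of libraries, the replicate block and leaving out each library.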

Additional observations from a re-analysis of the deposited data

How the results depend on the processing

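The counts of 7 genes higher and 34 lower depended on the scaling. With TMM factors, or with DESeq2 size factors, both computed from listed genes only, 3 were higher and 3 lower, and with the listed sum as library size 8 were higher and 2 lower; that last scaling moved the median change of all genes from -0.03 to 0.18 and turned the small negative medians of the interferon gamma (0.10), Toll-like receptor (0.082) and NF-kB (0.042) lists. The fit of only the 6 libraries gave 11 higher and 40 lower, limma-voom 4 and 40, and the DESeq2 Wald test 5 and 38. Adjustment over all annotated genes gave 1 and 7. The test against a minimum fold change gave 0 and 5. With the replicate block, 12 were higher and 50 lower. Fits without 1 library gave 5 to 22 higher and 18 to 57 lower; the largest counts came without LowDose replicate 1, and 14 of the 41 calls were made in all 6 such fits. Without LowDose replicate 3, 18 were lower, and without LowDose replicate 2, 5 were higher and 21 lower.

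With the mean level of the striatal genes as a covariate, 0 were higher and 2 lower. That level was 0.023, 0.24 and -0.27 in PBS and -0.55, -1.23 and -1.72 in LowDose, without overlap. It thus nearly follows the groups, so this fit can lose calls whatever their cause. That covariate is built from striatal genes and turned the direction of called genes, among them Adora2a (0.043), Syndig1l (0.082), Sh3rf2 (0.37), Drd2 (0.13), Slc35d3 (0.14), Rxrg (0.29), Drd1 (0.17), Pde10a (0.089), Gpr6 (0.84), Dach1 (0.014) and Cst7 (-0.38). No other alternative turned the direction of a called gene. The robust estimate of the spread, chosen after seeing the data, gave 6 higher and 30 lower, with 16 striatal calls. The striatal list had 25 calls with the replicate block, 24 with voom, 21 with DESeq2 and 1 with TMM factors. The cause of the differences was not tested. Levels under about 1 CPM rest on some 20 counts a library, and 588 of the tested genes had a mean below that.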

Other observations

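Of the 41 called genes, 10 stood on no list. Some groups not described above gave no call by edgeR, DESeq2 or limma-voom, where edgeR called 2.59% of all tested genes. Of 13 tested genes of the integrated stress response and unfolded protein response, which cells raise when protein folding fails, 0 had an unadjusted p under 0.05, and the median log2 change was 0.02. Of 17 tested genes of matrix remodelling, 0 had an unadjusted p under 0.05, with a median of 0.24. Of 9 tested genes of endothelium and pericytes, the cells of brain capillaries, 1 had an unadjusted p under 0.05, with a median of -0.09. Of 9 tested genes of border macrophages and monocytes, 0 had an unadjusted p under 0.05, with a median of -0.01. For 26 genes the LowDose and PBS means of FPKM were at least 2-fold apart while the HighDose and PBS means were not.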
